A study of Mus musculus with 9 samples.

Results

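Genes of cholesterol synthesis and sterol control were followed across ovaries of mice from 3 groups: recipients of transplanted spermatogonial stem cells (SSCTR), a premature ovarian failure model (POF) and wild-type controls (WT). The list holds 34 genes, chosen by symbol: 20 enzymes that build cholesterol, 5 genes that control the sterol-regulated transcription factors, 3 sterol transport genes, 4 genes of sterol-activated receptors and efflux, and 2 genes of sterol esters. Probes named for 29 of the 34 were found, 57 probes in all, and for 25 genes at least 1 probe was above background often enough to be tested. Acat2, Hmgcs1, Fdft1, Nr1h2 and Soat1 had no probe named for them in the annotation used here. Idi1, Ggps1, Abca1 and Abcg1 had probes, but none that was above background on 2 or more arrays.

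All groups are of strain C57BL/6, and the tissue was ovary. The labels give no age, sampling time, transplant route or way in which ovarian failure was induced, and do not state whether recipients had ovarian failure before the transplant. Replicates are numbered 1 to 3 in each group, without a statement that they came from separate animals, so the p-values may measure only a technical spread. Replicate 1 is not an independent array in the deposited table: divided by the average of its group's replicates 2 and 3, it gives 17 distinct ratios in SSCTR, 9 in POF and 6 in WT over 45281 probes. The results therefore rest on replicates 2 and 3, which is n = 2 arrays per group. Values are log2 intensities of the brightest probe of a gene on an Illumina bead array, and changes are differences of these with the standard error (SE) of the fit. A gene passed the threshold where its Benjamini-Hochberg adjusted p from limma was under 0.05 over all 13872 features tested.

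Between 16040 and 18041 probes were above background on an array. Of marker genes that define ovarian cells, 15 of 16 oocyte genes and 9 of 12 granulosa genes could be tested, while the granulosa gene Amh was not above background often enough to enter. Of the 25 measured sterol genes, 23 were above background on all 6 arrays and 2, Mvk and Tm7sf2, on 5, with 1 POF array below. No gene of the list thus entered through a single group.

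Cholesterol is made from acetyl-CoA through mevalonate, farnesyl diphosphate, squalene and lanosterol. Most enzymes of the route are transcribed under SREBP2 (Srebf2), a membrane-bound transcription factor. SCAP carries it out of the endoplasmic reticulum when sterols are scarce, and the INSIG proteins hold it back when they are plentiful. LXR receptors, in contrast, are activated by oxidised sterols and turn on efflux. In the ovary, cholesterol is the substrate of steroid hormones in granulosa, theca and luteal cells.

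Synthesis enzymes were higher in SSCTR than in POF ovaries along the route from diphosphomevalonate to cholesterol. Of 15 measured enzymes 9 passed the threshold, all of them higher in SSCTR: Mvd and Fdps, Sqle and Lss, and Cyp51, Tm7sf2, Nsdhl, Hsd17b7 and Dhcr7. The other 6 had positive changes of 0.19 to 0.59 on the log2 scale that did not pass. Over all 25 measured genes of the list, 10 were higher and 1 was lower in SSCTR, or 40% and 4%, where 12.6% of all features were called, 5.33% higher and 7.25% lower. The median log2 change was 0.84 for the enzymes, against 0.03 for all features. In tissue RNA, fewer cells of a type and less RNA per cell cannot be told apart.

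Hsd17b7, a sterol ketone reductase that also acts on estrone, had the highest change of the list. Its intensity was 12.79 and 13.19 on the SSCTR arrays, 11.60 and 11.16 on the POF arrays, and 11.74 and 11.84 on the WT arrays. Both SSCTR arrays lay above all others, and POF lay below WT. SSCTR exceeded POF by 3.06-fold (log2 change 1.61 ± 0.22 SE, adjusted p = 0.00194, n = 2 each). A second probe gave 1.53 ± 0.18 (adjusted p = 0.000912).

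Cyp51, the lanosterol demethylase, read 10.77 and 10.70 in SSCTR, 9.66 and 9.81 in POF, and 9.60 and 9.39 in WT. POF and WT lay close together and SSCTR apart above both. The difference between SSCTR and POF was 2.01-fold (1.00 ± 0.17, adjusted p = 0.00623). Lss, lanosterol synthase, read 8.29 and 8.34 in SSCTR, 6.92 and 7.45 in POF, and 7.46 and 7.51 in WT. Its POF arrays were the least alike, and both were below every SSCTR array. SSCTR exceeded POF by 2.19-fold (1.13 ± 0.20, adjusted p = 0.00833). Among the called genes, Hsd17b7, Cyp51 and Lss were the ones that kept their call in this comparison under all 14 alternatives, each single array left out included.

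The promoters of these 3 genes, and that of Nr1h3, the 1 listed gene called lower in SSCTR than in POF, are shown as examples of windows with and without the NF-Y box; NF-Y is a factor that binds with SREBP at many sterol promoters. Windows are RefSeq's, on GRCm38.p6, with 250 bases before and 50 from the start site, written 5′ to 3′ on the strand of the gene. Capitals mark CCAAT or its reverse complement ATTGG, and the E-box CACGTG. Lss lies at chr10:76531355-76531654 on the plus strand, Cyp51 at chr5:4104648-4104947 on the minus strand, Hsd17b7 at chr1:169969156-169969455 on the minus strand and Nr1h3 at chr2:91195067-91195366 on the minus strand.
Hsd17b7: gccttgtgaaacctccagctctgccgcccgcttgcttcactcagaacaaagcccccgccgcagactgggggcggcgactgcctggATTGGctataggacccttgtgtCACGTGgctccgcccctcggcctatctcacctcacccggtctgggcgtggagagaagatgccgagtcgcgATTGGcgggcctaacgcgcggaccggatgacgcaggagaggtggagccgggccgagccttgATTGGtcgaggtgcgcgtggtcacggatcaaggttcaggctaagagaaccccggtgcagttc
Cyp51: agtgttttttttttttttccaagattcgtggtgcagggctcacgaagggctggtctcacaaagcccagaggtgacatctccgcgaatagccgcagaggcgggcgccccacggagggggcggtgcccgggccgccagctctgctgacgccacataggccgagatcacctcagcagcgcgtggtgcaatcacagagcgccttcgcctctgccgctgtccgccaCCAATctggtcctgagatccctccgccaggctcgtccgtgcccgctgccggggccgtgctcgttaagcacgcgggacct
Lss: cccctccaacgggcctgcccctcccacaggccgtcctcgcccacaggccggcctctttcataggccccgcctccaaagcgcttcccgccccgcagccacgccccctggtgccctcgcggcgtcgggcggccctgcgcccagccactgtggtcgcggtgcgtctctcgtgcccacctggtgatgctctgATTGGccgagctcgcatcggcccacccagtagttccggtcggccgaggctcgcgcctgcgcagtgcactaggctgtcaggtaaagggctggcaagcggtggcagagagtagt
Nr1h3: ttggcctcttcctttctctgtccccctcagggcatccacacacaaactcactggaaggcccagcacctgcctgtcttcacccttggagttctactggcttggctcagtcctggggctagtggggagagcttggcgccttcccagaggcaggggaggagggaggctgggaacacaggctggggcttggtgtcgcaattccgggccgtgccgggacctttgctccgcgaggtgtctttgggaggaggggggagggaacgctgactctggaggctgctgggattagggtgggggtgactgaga

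The Hsd17b7 window held the NF-Y letters 3 times, with first bases at -165, -73 and -12 from the start site, and an E-box at -143. Cyp51 held them once at -29 and Lss once at -62. Neither of the Nr1h3 windows in the table, of which 1 is printed, held any of the motifs. The annotated gene spans chr2:91184061-91202829, so both windows lie inside it, and the sequence at its 5′ end was not read. Among enzymes of the list, 16 of 17 with a window held CCAAT on either strand in at least 1 window, against 6 of 11 other genes of the list with a window; over all genes in the table it was 41.1%, and over the tested named genes 43%. Counted by window, these shares were 80% of 20 enzyme windows, 38.9% of 18 other windows and 37.4% of all 32851 windows. The sterol regulatory element spelled TCACNCCAC, either strand, was in 1 of the 28 genes with a window, Hmgcs1, which has no probe here, and in 1.44% of all genes. The E-box was in 7 of the 28, against 8.09% of all genes. None of these motifs overlapped another in the printed windows. Outside the list, 3 other pathway genes called lower in SSCTR than in POF were read. Stard5 and Cyp27a1 held the NF-Y box 2 times each in the window read, and Elovl6 did not. Windows of the other pathway genes called higher were not read, so whether the box sorts with direction there was not tested. These are letter matches, not tested sites.

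**Figure D1:**
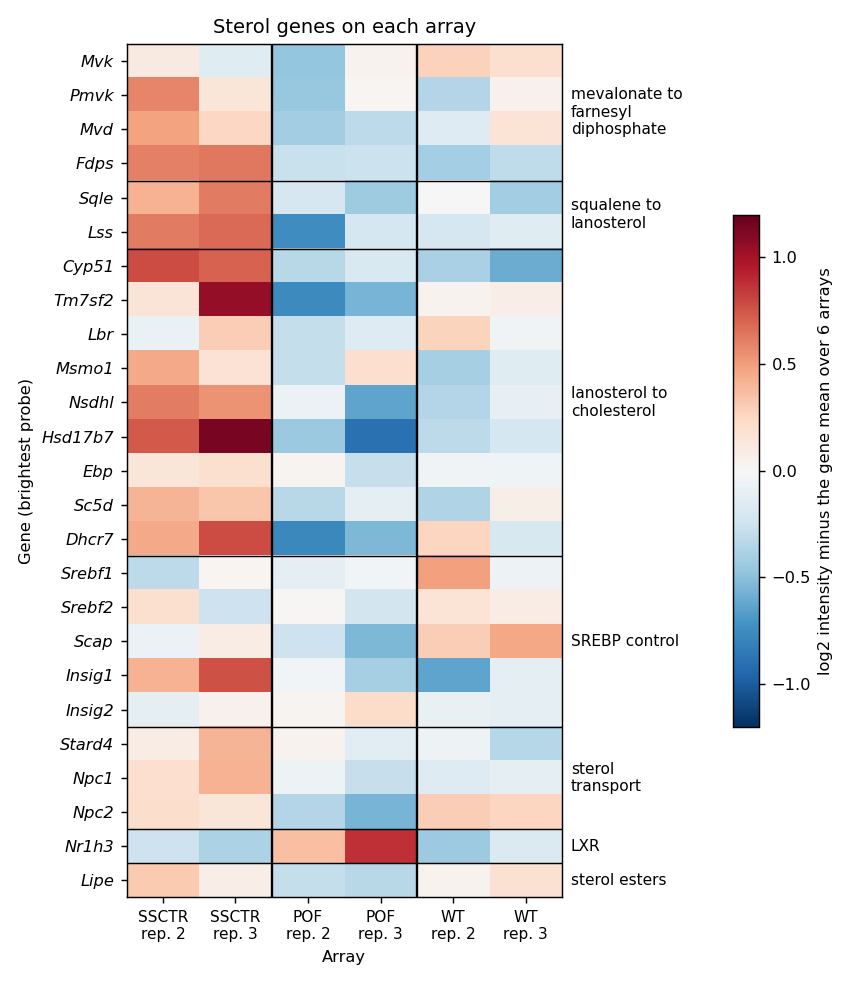
Log2 intensity of each measured sterol gene on each array, minus the mean of that gene over the 6 arrays (colour, red high and blue low), by role from top to bottom, with SSCTR, POF and WT arrays from left to right. The enzymes' median deviation was 0.46 and 0.54 on the SSCTR arrays, -0.33 and -0.26 on the POF arrays, and -0.20 and -0.10 on the WT arrays.

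In the early part of the route, Fdps, which makes farnesyl diphosphate, read 13.87 and 13.90 in SSCTR, 13.00 and 13.01 in POF, and 12.85 and 12.96 in WT. Among the sterol genes called in this comparison, its arrays were the closest together within SSCTR and within POF. The excess over POF was 1.84-fold (0.88 ± 0.16, adjusted p = 0.00885), with a second probe at 0.78 ± 0.18 (adjusted p = 0.0287). Without SSCTR replicate 3 or POF replicate 3 the call was lost (adjusted p up to 0.0519). Mvd, the decarboxylase that ends the mevalonate steps, read 9.17 and 8.94 in SSCTR, 8.27 and 8.38 in POF, and 8.53 and 8.85 in WT. Here WT lay between both other groups. The change between SSCTR and POF was 0.73 ± 0.19 (adjusted p = 0.0366). The kinases before it were Mvk, at 0.19 ± 0.21 (adjusted p = 0.621), and Pmvk, at 0.58 ± 0.24 (adjusted p = 0.169).

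Sqle, squalene epoxidase and a slow step of the route, read 10.67 and 10.87 in SSCTR, 10.05 and 9.82 in POF, and 10.25 and 9.83 in WT. POF and WT overlapped, and SSCTR lay above both. The excess over POF was 1.79-fold (adjusted p = 0.0287), while its second probe gave 0.41 ± 0.18 and did not pass (adjusted p = 0.197). The calls of Mvd and Sqle were each lost without any 1 of the 4 arrays compared (adjusted p up to 0.167 and 0.157) and with no filter on dim probes.

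Among the later enzymes, Dhcr7, a reductase at the end of the route, read 7.66 and 7.98 in SSCTR, 6.43 and 6.67 in POF, and 7.46 and 7.01 in WT. The groups did not overlap, with WT in the middle. The excess of SSCTR over POF was 2.41-fold (1.27 ± 0.22, adjusted p = 0.00593), and the call was lost without POF replicate 2 (adjusted p = 0.0507). Nsdhl, a sterol dehydrogenase that helps remove methyl groups, read 8.74 and 8.67 in SSCTR, 8.07 and 7.50 in POF, and 7.78 and 8.03 in WT. Both SSCTR arrays lay above the rest, and POF and WT overlapped. The difference between SSCTR and POF was 1.90-fold (adjusted p = 0.0265). It was no longer called without SSCTR replicate 2, SSCTR replicate 3 or POF replicate 3, nor with no filter on dim probes. Of its 3 other probes, 1 passed at 0.77 and the others stood at 0.34 and 0.72.

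Tm7sf2, a sterol reductase, read 5.56 and 6.46 in SSCTR, 4.64 and 4.86 in POF, and 5.45 and 5.49 in WT. Its SSCTR arrays were far apart, and 1 POF array was below background. The change between SSCTR and POF was 1.26 ± 0.27 (adjusted p = 0.0181). The call was lost without SSCTR replicate 3 or either POF array, and with no filter on dim probes. Lbr, which catalyses the same reduction, was at 0.32 ± 0.20 (adjusted p = 0.348); whether the 2 genes differ was not tested. Msmo1 (0.36), Ebp (0.29) and Sc5d (0.59), a methylsterol oxidase, an isomerase and a desaturase, did not pass. The enzymes whose SSCTR arrays both lay above both POF arrays numbered 13 of 15, and none lay the other way; of all features 28.8% lay above and 26.6% below.

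**Figure D2:**
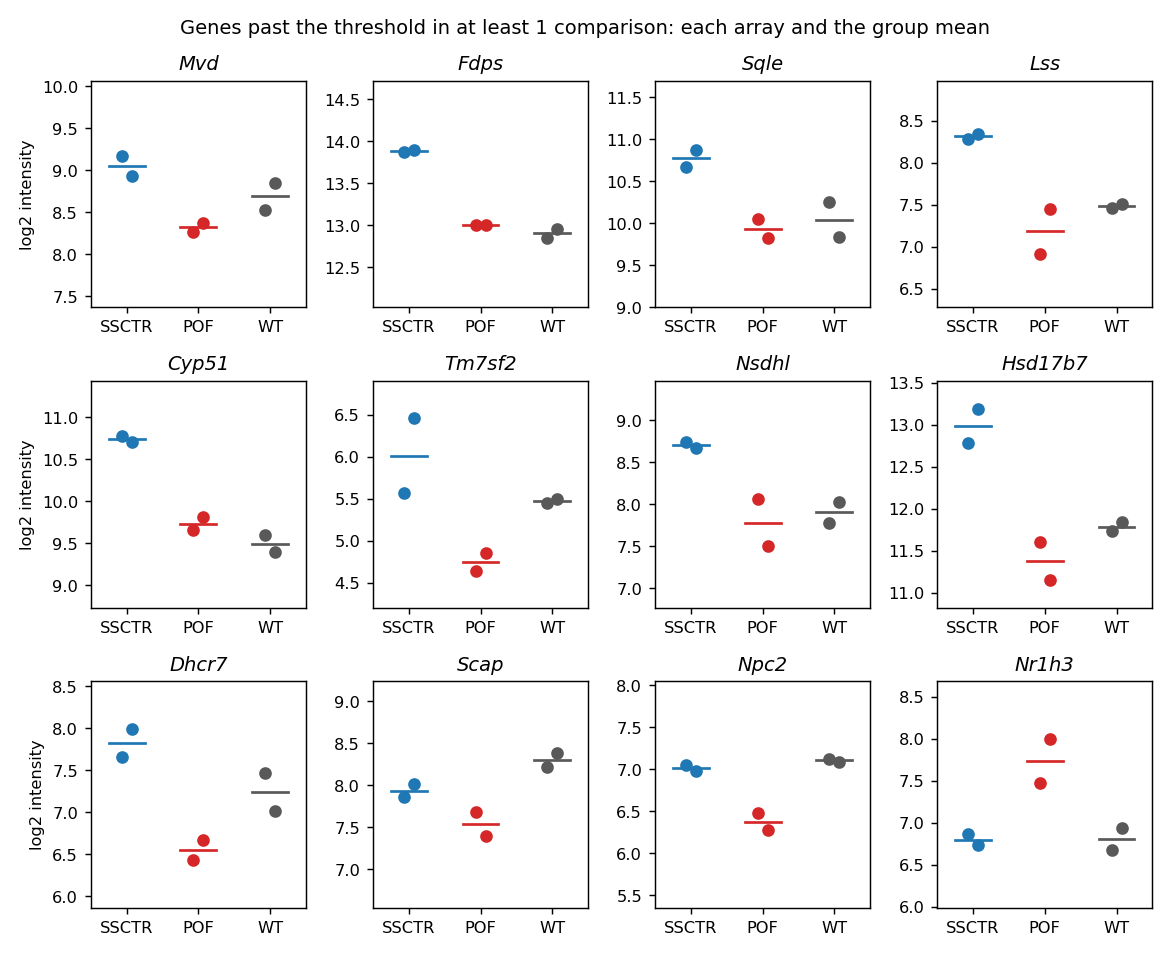
Log2 intensity on each array (points) and group mean (line) for the 12 genes of the list past the threshold in at least 1 comparison, in SSCTR, POF and WT ovaries; every panel spans the same range of log2 units. For every enzyme shown both SSCTR points lie above all 4 others, while for Nr1h3 the POF points lie highest.

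Leaving out 1 array reduced the count of called sterol genes in SSCTR against POF to 6 (without SSCTR replicate 2), 4 (without SSCTR replicate 3), 6 (without POF replicate 2) or 4 (without POF replicate 3), out of 11 with all arrays. With no filter on dim probes it was 6.

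Against WT, Cyp51, Hsd17b7 and Fdps were higher in SSCTR ovaries. Of the 25 measured genes 3 passed, all enzymes and all higher in SSCTR, or 12%, where 3.31% of all features were called, 1.81% higher and 1.5% lower. Cyp51 was 2.36-fold higher (1.24 ± 0.17, adjusted p = 0.00736), Hsd17b7 2.30-fold higher (1.20 ± 0.22, adjusted p = 0.0232) and Fdps 1.97-fold higher (0.98 ± 0.16, adjusted p = 0.0165). These are the same SSCTR arrays as in the comparison with POF, so the comparisons are not independent. The second Hsd17b7 probe, below background on both WT arrays, had a log2 change of 1.80 (adjusted p = 0.00135). Measured against the background limit, it was at least 2.88-fold higher, a bound that was not itself tested. The second Fdps probe was at 0.32 (adjusted p = 0.439). With 1 array left out, Fdps lost its call in all 4 cases. Hsd17b7 lost it without SSCTR replicate 3 or either WT array, and Cyp51 without SSCTR replicate 2 or WT replicate 3. Fdps also lost it with the probes of a gene averaged, and Hsd17b7 with no filter on dim probes.

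Among the enzymes that did not pass, Lss (0.83, adjusted p = 0.0718), Nsdhl (0.80, adjusted p = 0.0949) and Sqle (0.73, adjusted p = 0.0977) had the highest changes, and they passed under 6, 5 and 5 of 14 alternatives. The feedback gene Insig1, described with the control genes, stood above them at 0.96. For Lss, Nsdhl and Sqle the alternatives that passed include the fit of all 9 columns, which counts derived columns as replicates. The median log2 change of the 15 enzymes was 0.58, against -0.01 for all features, and 13 had both SSCTR arrays above both WT arrays, where 22.6% of all features did and 25.3% lay below. Mvk was the 1 enzyme with both SSCTR arrays below both WT arrays (-0.25 ± 0.21, adjusted p = 0.597). The count of 3 fell to 1 without SSCTR replicate 2, SSCTR replicate 3 or WT replicate 2, and to 0 without WT replicate 3. It was 7 without background correction, with an offset of 50, with the authors' normalized table or with an intensity trend in the prior. The share of all features called under these settings is not given here, so the rise cannot be set against it.

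In POF against WT the counts of called genes lay near the background, while more enzymes lay below WT than above it. In the limma fit 0 of 15 enzymes passed, 2 had an unadjusted p under 0.05, both lower in POF, and the median log2 change was -0.12 against -0.03 for all features. Over the 25 genes, 1 was higher and 2 were lower, or 4% and 8%, where 11.9% of all features were called, 6.98% higher and 4.96% lower. Both POF arrays lay above both WT arrays for 2 enzymes and below them for 7, where 25.6% and 29.3% of all features did. Dhcr7 at -0.69 ± 0.22 (adjusted p = 0.0754) and Tm7sf2 at -0.72 ± 0.27 (adjusted p = 0.130) had the most negative changes among enzymes. Dhcr7 was called lower in POF under 6 of 14 alternatives, among them the fit of all 9 columns, which counts derived columns as replicates. Leaving out 1 array left 1 call (without POF replicate 2) or 0 (without POF replicate 3, WT replicate 2 or WT replicate 3).

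SSCTR had the highest group mean of 13 of the 15 enzymes, with the order SSCTR, WT, POF in 10 and SSCTR, POF, WT in 3. Lbr and Mvk were highest in WT. Over all 25 genes SSCTR was highest in 17, POF in 2 and WT in 6. Over all features these shares were 32.9%, 33.7% and 33.4%. POF was lowest in 17 of the 25, SSCTR in 2 and WT in 6, where over all features the shares were 39.4%, 31.6% and 29.0%. Of the enzymes called in SSCTR against WT, Hsd17b7 ran SSCTR, WT, POF, while Cyp51 and Fdps ran SSCTR, POF, WT. The order of POF and WT depended on the probe. The second Fdps probe had means of 8.02 in SSCTR, 7.69 in WT and 7.24 in POF. The second Hsd17b7 probe had 6.25 in SSCTR, 4.72 in POF and 4.46 in WT, where it was below background.

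**Figure D3:**
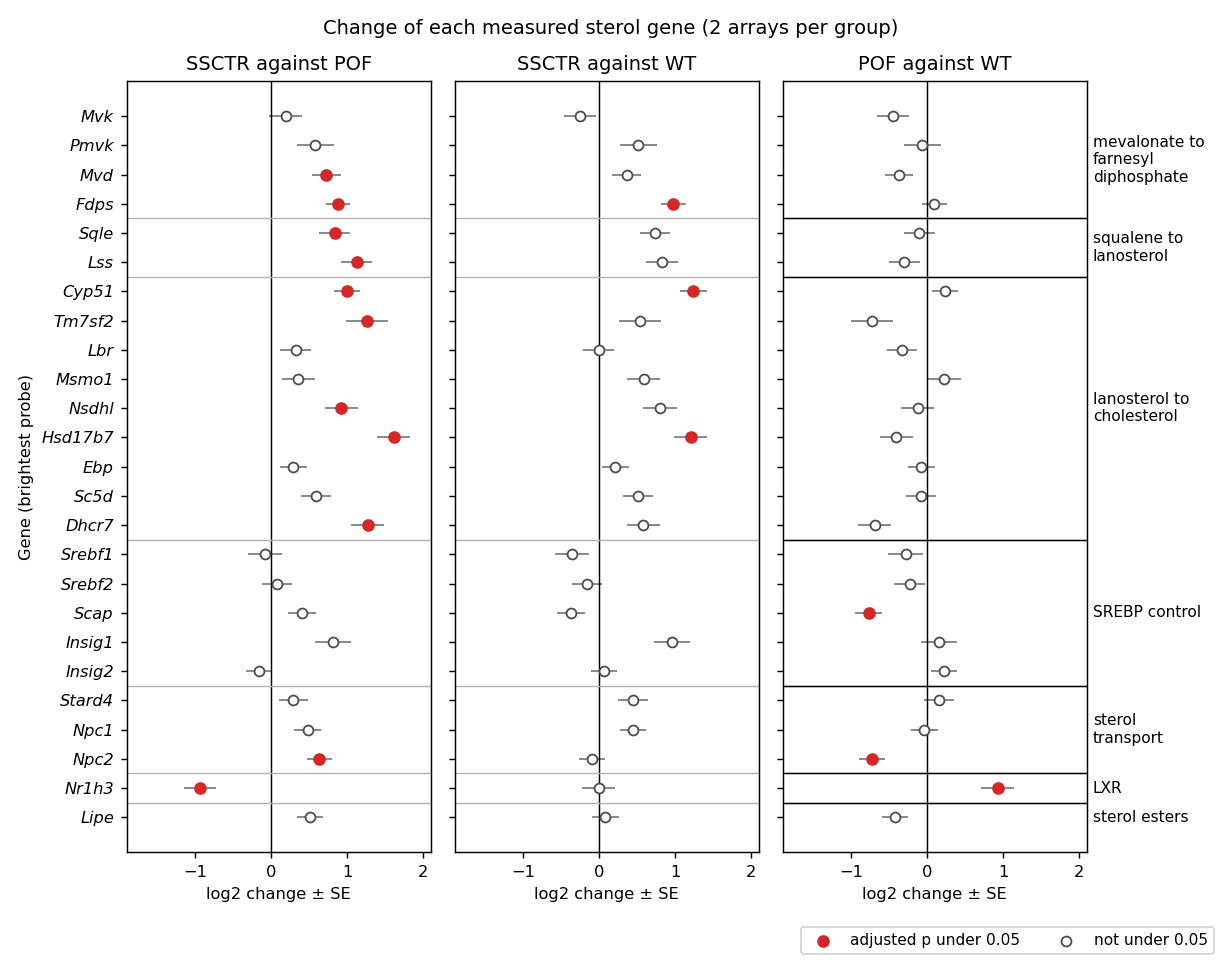
Log2 change with its SE for each measured sterol gene (rows, by role) in SSCTR against POF, SSCTR against WT and POF against WT, from the fit of 6 arrays; filled points have an adjusted p under 0.05. In SSCTR against POF 9 of 15 enzymes are filled to the right of 0, against 3 in SSCTR against WT and 0 in POF against WT.

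Of the 5 control genes, 0 passed in limma in SSCTR against POF and 0 in SSCTR against WT, with 1, Insig1, at an unadjusted p under 0.05 in each. Srebf2, the gene of SREBP2, read 8.17 and 7.73 in SSCTR, 7.99 and 7.75 in POF, and 8.14 and 8.07 in WT, and its SSCTR arrays spanned both POF arrays. The change between SSCTR and POF was 0.07 ± 0.20 (adjusted p = 0.853). Srebf1, whose product drives mainly fatty acid genes, read 5.86 and 6.20 in SSCTR, 6.06 and 6.14 in POF, and 6.66 and 6.11 in WT. Its change was -0.07 ± 0.22 between SSCTR and POF (adjusted p = 0.868) and -0.36 ± 0.22 between SSCTR and WT (adjusted p = 0.468).

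Insig1, a feedback gene that SREBP itself turns on, read 7.83 and 8.18 in SSCTR, 7.38 and 7.02 in POF, and 6.78 and 7.30 in WT. Both SSCTR arrays were above all others. It did not pass the threshold, at 0.81 ± 0.24 against POF (adjusted p = 0.0593) and 0.96 ± 0.24 against WT (adjusted p = 0.0705). In each of these comparisons 6 of 14 alternatives brought it past the threshold, with adjusted p from 0.00133 to 0.272 against POF and from 0.000804 to 0.321 against WT. The 6 include the fit of all 9 columns, which counts derived columns as replicates. The 2 other measured Insig1 probes stood at 0.54 and 0.26 against POF.

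Insig2, the second anchor protein, gave different results by probe. On its brightest probe it read 7.66 and 7.83 in SSCTR, 7.81 and 7.99 in POF, and 7.68 and 7.66 in WT, with a change of -0.15 ± 0.17 between SSCTR and POF (adjusted p = 0.615). The dimmer probe read 6.53 and 6.67 in SSCTR, 8.08 and 8.04 in POF, and 7.20 and 7.00 in WT. There POF was highest and SSCTR lowest, with no overlap. On that probe Insig2 was 2.75-fold lower in SSCTR than in POF (-1.46 ± 0.18, adjusted p = 0.00116) and 1.94-fold higher in POF than in WT (0.96 ± 0.18, adjusted p = 0.0112). The files do not say which transcripts the probes detect, so the probes cannot be ranked.

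Scap, the escort of SREBP, read 7.86 and 8.02 in SSCTR, 7.68 and 7.39 in POF, and 8.22 and 8.39 in WT. It was 1.71-fold lower in POF than in WT (-0.77 ± 0.18, adjusted p = 0.0281), and the call was lost without any 1 of the 4 POF and WT arrays and with probes averaged (adjusted p up to 0.498). A second Scap probe went the other way, at 0.37 ± 0.18 (adjusted p = 0.256).

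**Figure D4:**
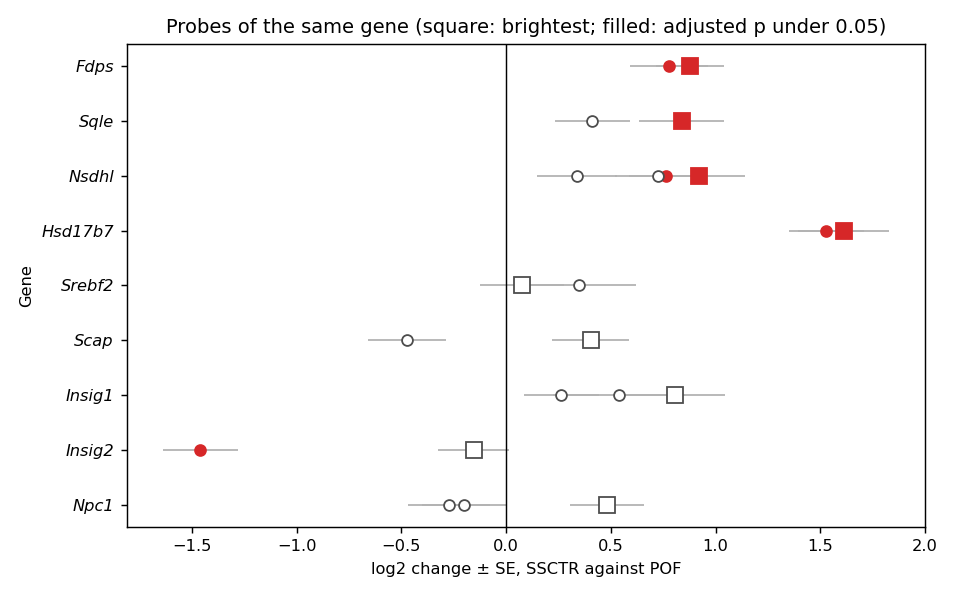
Log2 change with SE between SSCTR and POF for every measured probe of the 9 genes with more than 1, by gene (rows); squares are the brightest probe of a gene and filled symbols have an adjusted p under 0.05. The 2 Hsd17b7 probes lie close together at 1.61 and 1.53, while those of Insig2 lie at -0.15 and -1.46, and those of Scap and of Npc1 fall on both sides of 0.

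Among transport genes, Npc2, which hands cholesterol from the lysosome to the membrane protein NPC1, read 7.05 and 6.98 in SSCTR, 6.48 and 6.28 in POF, and 7.13 and 7.09 in WT. POF lay below both other groups, which were close together. Npc2 in SSCTR exceeded that in POF by 1.55-fold (0.64 ± 0.17, adjusted p = 0.0408), and it was 1.66-fold lower in POF than in WT (-0.73 ± 0.17, adjusted p = 0.0256). Neither call was kept without any 1 of the 4 arrays compared (adjusted p up to 0.185 and 0.130). Npc1 was at 0.48 ± 0.18 between SSCTR and POF (adjusted p = 0.118) on its brightest probe and at -0.20 and -0.27 on 2 dimmer ones. Stard4, a soluble sterol carrier, was at 0.29 ± 0.19 (adjusted p = 0.381).

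Nr1h3, the gene of LXR alpha and abundant in macrophages, was highest in POF. It read 6.87 and 6.73 in SSCTR, 7.48 and 8.00 in POF, and 6.68 and 6.94 in WT. POF was above every other array, and SSCTR and WT overlapped. Nr1h3 was 1.91-fold lower in SSCTR than in POF (-0.94 ± 0.21, adjusted p = 0.0231) and 1.90-fold higher in POF than in WT (0.93 ± 0.21, adjusted p = 0.0256). The call against POF was lost without SSCTR replicate 2, SSCTR replicate 3 or POF replicate 3. That of POF against WT was lost without POF replicate 3 or either WT array. Both calls were also lost with no filter on dim probes. Macrophage marker genes moved with it: 10 of 16 were lower in SSCTR than in POF and 8 of 16 were higher in POF than in WT. Of all features, 7.25% and 6.98% were called in these directions. The summed intensity of the macrophage markers was 5471 and 4777 in SSCTR, 13620 and 16855 in POF, and 5721 and 6163 in WT, with Itgam not above background often enough to enter. Their part in the result was not tested.

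The LXR targets Abca1 and Abcg1, which export cholesterol, were below background on all SSCTR and WT arrays, and on all but 1 POF array for Abcg1. Lipe, the hormone-sensitive lipase that frees cholesterol from esters, read 5.61 and 5.37 in SSCTR, 5.01 and 4.95 in POF, and 5.33 and 5.47 in WT. It was at 0.51 ± 0.17 between SSCTR and POF (adjusted p = 0.0964). Of 5 measured adipocyte markers, none of them Lipe itself, 1 was lower in SSCTR than in POF, where 7.25% of all features were lower. The defining markers Plin1, Fabp4, Retn and Acvr1c did not enter. The summed intensity of the adipocyte markers was 2138 and 2072 in SSCTR, 2992 and 2426 in POF, and 3159 and 3104 in WT.

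Markers of cell types that use or make cholesterol, and of others in or near the ovary, differed between the groups as well. Of all features, 5.33% were called higher and 7.25% lower in SSCTR than in POF, and 1.81% and 1.5% in SSCTR than in WT. Among 9 granulosa markers, SSCTR exceeded POF in 6, with a median log2 change of 0.87, and WT in 1, with a median of 0.38. Their summed intensity was 25737 and 24403 in SSCTR, 21265 and 22294 in POF, and 23887 and 25630 in WT. Luteal and steroidogenic markers were higher in SSCTR at 2 of 7 in each comparison, with medians of 0.55 against POF and 0.02 against WT. Their sums overlapped, at 8004 and 8462 in SSCTR, 8647 and 7271 in POF, and 7496 and 8058 in WT, with 1 POF array the highest. The luteal list includes Star, Cyp11a1, Hsd3b1 and Scarb1, which are counted again among the further genes of the pathway. The 5 measured theca and interstitial markers had medians of 0.27 against POF and -0.26 against WT. Among 15 oocyte markers, SSCTR exceeded POF in 13 and was below WT in 1; they summed to 10020 and 9168 in SSCTR, 5394 and 5546 in POF, and 11239 and 11370 in WT. Of 7 oviduct markers, 5 showed less signal in SSCTR than in POF, with sums of 244 and 219 in SSCTR, 3234 and 2807 in POF, and 182 and 211 in WT. Surface epithelium markers ran the same way at 7 of 10, with 1 higher, and summed to 1970 and 1741 in SSCTR, 5575 and 6472 in POF, and 2462 and 2345 in WT. The part of these cells in the enzyme changes was not tested.

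Of further genes of the pathway, 46 were measured among 58 listed, and 2 were higher and 3 lower in SSCTR than in POF, or 4.35% and 6.52%, near the shares of all features. Their median log2 change was 0.09. Acss2, which makes acetyl-CoA from acetate and is an SREBP target, read 10.19 and 10.12 in SSCTR, 9.01 and 9.33 in POF, and 9.38 and 9.25 in WT. Its SSCTR arrays were apart above the others, as for Cyp51 and Fdps. Acss2 was 1.98-fold higher than in POF (adjusted p = 0.00841) and 1.79-fold higher than in WT (adjusted p = 0.0435). The call against POF was lost without POF replicate 2. That against WT was lost without any 1 array, with no filter on dim probes or with the replicate number as a block. Star, which carries cholesterol into mitochondria for steroid synthesis, read 9.52 and 9.30 in SSCTR, 8.55 and 8.32 in POF, and 7.93 and 8.27 in WT. In SSCTR it was 1.96-fold higher than in POF (adjusted p = 0.0126) and 2.48-fold higher than in WT (adjusted p = 0.00999). These calls were lost without SSCTR replicate 2, and also without POF replicate 3 in the comparison with POF and without WT replicate 2 in that with WT (adjusted p up to 0.0888 and 0.0867).

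Lower in SSCTR than in POF were Stard5 (2.99-fold, adjusted p = 0.000491), a lipid-transfer protein, Elovl6 (2.19-fold, adjusted p = 0.00351), a fatty acid elongase under SREBP1, and Cyp27a1 (2.08-fold, adjusted p = 0.00388), which makes an oxysterol. The same 3 genes were higher in POF than in WT, by 2.17-fold, 2.04-fold and 2.20-fold. Lower in POF than in WT were Tmem97 (1.97-fold, adjusted p = 0.0158), Cyp11a1 (1.78-fold, adjusted p = 0.0153), Nus1 (1.75-fold, adjusted p = 0.0263) and Scarb1 (1.56-fold, adjusted p = 0.0493). Of these, Cyp11a1 opens steroid synthesis and has other probes at 0.24 and -0.02. Scarb1 takes up cholesterol from lipoproteins, and its second probe went the other way, at 0.53 (adjusted p = 0.339). That makes 3 higher and 4 lower of 46, or 6.52% and 8.70%, where 6.98% and 4.96% of all features were called in these directions. Without 1 array these 7 calls fell to between 2 and 5, with 5 left without POF replicate 2, 2 without POF replicate 3, 3 without WT replicate 2 and 4 without WT replicate 3. Stard5 and Cyp27a1 kept their calls in both comparisons under all 14 alternatives, and so did Elovl6 in SSCTR against POF, while Scarb1 lost its call under 8 of them.

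Within the fatty acid list, 1 of 7 was higher and 1 lower in SSCTR than in POF, where 5.33% and 7.25% of all features were. These were Acss2 and Elovl6. Genes of isoprenoid use had 10 of 11 changes positive, between -0.09 and 0.46. The share of positive changes over all features is not given here. On the brightest probes 0 passed in limma and 0 had an unadjusted p under 0.05. The median was 0.28, against 0.03 for all features. A second, dimmer probe of Rabggtb, a subunit of a geranylgeranyl transferase, passed at 0.82 ± 0.21 (adjusted p = 0.0404), while its brightest probe was at 0.38 (adjusted p = 0.206).

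**Figure D5:**
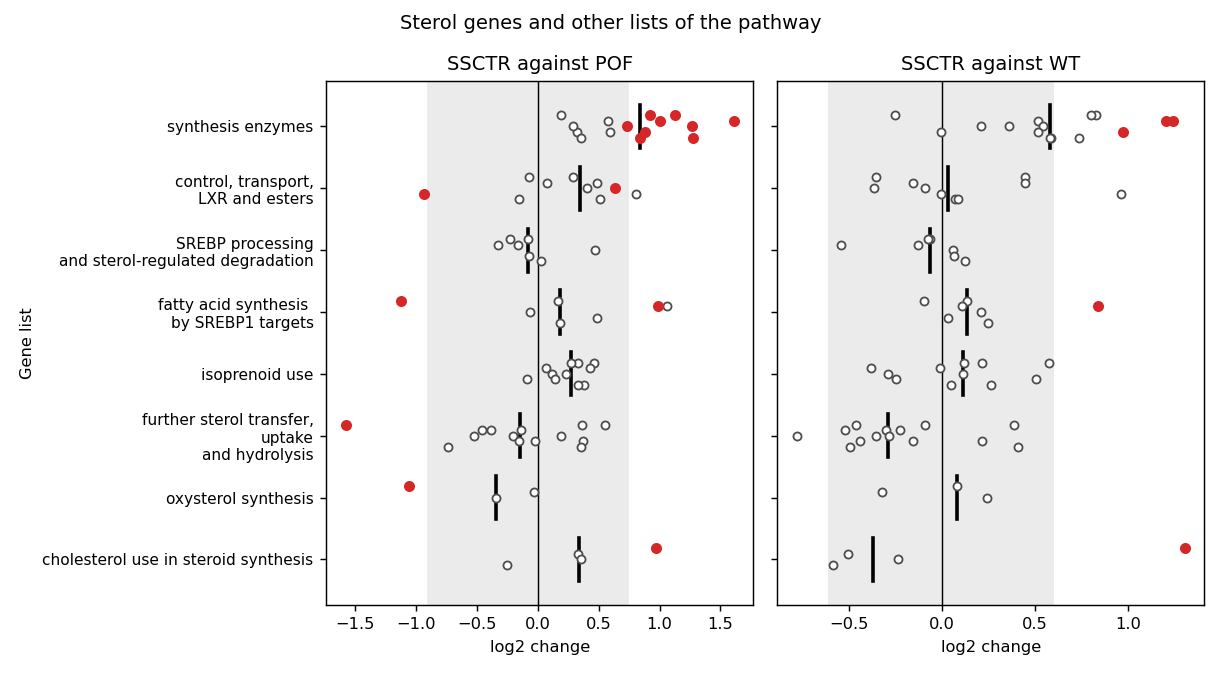
Log2 change of each measured gene (points, filled where the adjusted p is under 0.05) and list median (bar) for the sterol genes and 6 other lists of the pathway, in SSCTR against POF and SSCTR against WT; the grey band spans the 5th to 95th percentile of all named genes. Of the 15 enzyme points, 9 are filled in SSCTR against POF and 3 in SSCTR against WT, all to the right of 0, and the enzyme medians are 0.84 and 0.58.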

How the data were processed

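Total RNA of mouse ovaries was extracted with Trizol, cleaned on a column with DNase, and hybridized as biotinylated cRNA, per the labels' protocols. The authors deposited a table with an average intensity and a detection p-value per probe and array, per the file headers, and a second table of normalized intensity values. GenomeStudio is named in the submitters' processing notes; its version, a genome build and a normalization are not given in the sources used here. The first table is called non-normalized, but sorted intensities of the 6 arrays used differ by at most 0.542%, so their whole distributions were matched before deposit. The background correction and normalization described below were run on these matched values. The second table equals a quantile normalization of all 9 columns for 99.99% of values, within 1e-4 of the value. Replicate 1 detection values, which exceed 1, are no p-value.

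R 4.3.3 with limma 3.58.1 was used for neqc (background from detection p, normexp offset 16, quantiles, log2). Without counts, the number of arrays limits the precision. A probe entered with detection p under 0.05 on at least 2 of 6 arrays (19394 probes). The brightest probe by mean log2 stood for a gene, giving 13872 features, 11053 of them named genes. Symbols were updated by Entrez identifier to RefSeq names. The 3 groups were fitted in 1 limma model without a block; the method was tested on simulated data. Other probes of a gene were fitted with all 19394 probes. Deviations of equal replicate numbers did not go together (r = -0.0171 for SSCTR and WT, -0.0629 for POF and WT, -0.00259 for SSCTR and POF, across features), so samples were treated as unpaired. All members are accounted for; called members and control genes have every array printed, and of other pathway genes at most the 5 largest called changes per direction. A gene below background on both arrays of a group has a bound, against the higher of its own value and the lowest detected value of each array. The members, lists and tests were chosen with earlier results of these data known.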

Additional observations from a re-analysis of the deposited data

How the results depend on the processing

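With a single array left out, the called sterol genes numbered 0 to 1 in POF against WT, 4 to 6 in SSCTR against POF and 0 to 1 in SSCTR against WT, and the called other pathway genes 2 to 5, 4 to 5 and 0 to 1; a group left with 1 array is assumed to vary like the others. In POF against WT, averaging the probes of a gene turned 1 higher and 2 lower sterol genes into 2 higher and 1 lower (3 in all). In the same comparison all 9 columns gave 6 sterol genes and 16 other genes. In SSCTR against POF, no filter gave 6 sterol genes, with more features tested; the other genes numbered 10 without background correction (6 higher, 4 lower), 8 with an offset of 50, 9 with the authors' table (5 higher, 4 lower) and 16 with all 9 columns (10 higher, 6 lower). In SSCTR against WT, sterol genes numbered 7 without background correction, with an offset of 50, with the authors' table or with a trended robust prior, 5 where every array had to reach a detection p of 0.01, and 15 with all 9 columns, which count derived columns as replicates. The other genes numbered 6 without background correction, with the authors' table or with the trended prior (2 higher, 4 lower each), 4 with the offset, 12 with all columns (4 higher, 8 lower), 1 with no filter and 1 with the replicate number as a block. The share of all features called under each alternative is not given here, so these counts have no background beside them. The cause of these shifts was not tested. The block left 9 called sterol genes in SSCTR against POF, without Mvd and Npc2, and 3 in each other comparison. Of all values of the sterol genes and the called other genes under alternatives, 85 lost and 73 gained a call, 39 changed sign without a call on either side, and 1225 kept direction and side; 0 changed the sign of a call. With 2 arrays per group, small changes are beyond reach, and dim genes such as Tm7sf2 and Mvk lie close to background.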
